A study of Rattus norvegicus with 6 samples.

Results

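Cyp2e1 and Nat1 are the 2 genes of foreign-compound (xenobiotic) metabolism that carry a gene name among the probes read from rat thoracic aorta. They were found as the catalogue probes whose RefSeq accession belongs to either gene, which gave 1 probe each: A_44_P409232 (NM_031543) for Cyp2e1 and A_44_P276435 (NM_053853) for Nat1. Each array carried 38804 different probes, 50 of them catalogue probes, of which 30 matched a RefSeq gene. The rest were not matched to genes here, so shares over all tested probes rest mainly on unmatched probes. Each of the 2 probes was printed as 10 spots on every array. Both genes were selected on their log2 difference between treated and control rats, which was already known (2.04 for Cyp2e1 and 0.22 for Nat1). That difference is therefore given as a description, with its error and no test.

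All 6 rats were spontaneously hypertensive rats (SHR), an inbred strain whose blood pressure rises without treatment. They were 12 weeks old at the start and 16 weeks old at collection. The 3 treated rats received daily injections into a vein of a Ganoderma lingzhi peptide named SYP, at 5 mg/kg for 28 days. The 3 control rats received saline. No normotensive strain is part of the design, so every value refers to hypertensive aorta. The labels give the rats as female in one field and male in another, and no sex is assumed here. Each rat has 1 one-colour array. The files do not show whether the arrays came from separate extractions, so the spread between arrays may hold technical variation beside that between rats.

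Cyp2e1 is a cytochrome P450 of the endoplasmic reticulum. It oxidises ethanol, acetone and many small solvents and drugs, releases reactive oxygen while doing so, and is best known from the liver. Nat1 encodes an arylamine N-acetyltransferase, a cytosolic enzyme that moves an acetyl group from acetyl-coenzyme A to aromatic amines and hydrazines. The oxidation belongs to the first phase of xenobiotic metabolism, which alters the compound, and the acetylation to the second, which attaches a group to it.

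The arrays lay on 2 slides, told apart by their scans. Slide 1 held the 3 controls together with peptide 1, while slide 2 held the remaining treated rats, peptide 2 and 3. Between 95.36% and 98.04% of the probes were well above background, and 0 spots were saturated. The 75th percentile of signal was 224 to 251 on slide 1 and 336 and 328 on slide 2, so log2 signals were lowered by each array's 75th percentile ("scaled log2 signal"). The number of arrays limits the precision.

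Both genes gave a measurable signal in the aorta of every rat. All 10 spots of each probe were marked well above background on all 6 arrays. The processed signal is the spot's brightness after background subtraction, in intensity units. The brightest negative-control spot of an array, a probe meant to bind no rat RNA, had a processed signal of 2.02 to 3.46. Levels of the 2 probes are not set against each other, because probes differ in how well they bind.

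The oxidising enzyme, Cyp2e1, was dim in the controls. Its processed signal was 25.1, 33.9 and 24.8 in control 1, 2 and 3 (27.9 ± 5.17, SD, n = 3) and 154, 186 and 102 in peptide 1, 2 and 3 (147 ± 42.7, SD, n = 3). All 3 peptide arrays were brighter than all 3 controls, and peptide 3 was the dimmest of the treated rats. The control signals were still 9.93 to 12.2 times that of the brightest negative-control spot of the same array, against 29.3 to 77 times in the peptide group. The groups also stood apart before any background subtraction, with raw spot signals of 47.2, 60.1 and 51.3 in the controls and 182, 205 and 122 in the peptide group, over a local background of 13 to 16.3.

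**Figure D1:**
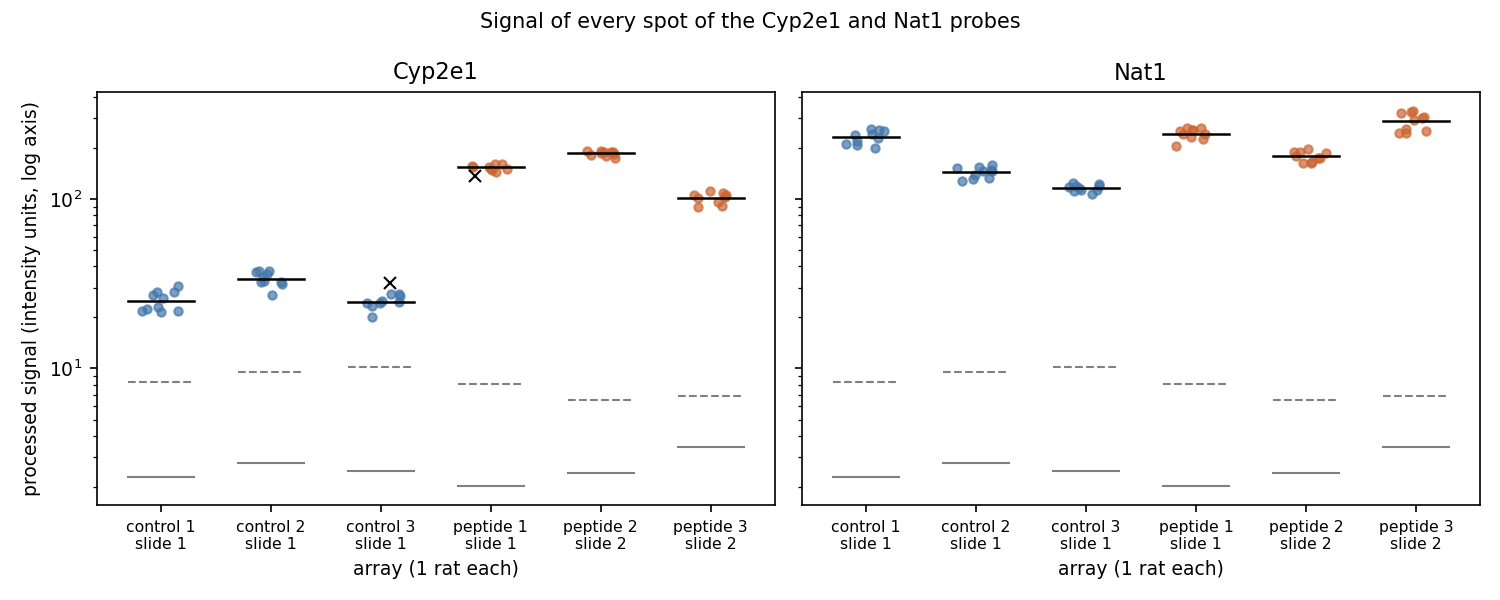
Processed signal (intensity units, log axis) of each of the 10 spots of the Cyp2e1 and Nat1 probes on each array, 1 rat per array; crosses are outlier spots that were left out, black bars the mean of the other spots, dashed lines the lowest signal marked well above background on that array, and grey solid lines its brightest negative-control spot. For Cyp2e1 the dimmest spot of the peptide arrays lies at 89.6 and the brightest spot of the controls at 37.7, whereas the Nat1 spots of both groups overlap. Signals are not scaled between arrays, and the spots of an array are not replicates of rats.

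The spots of a probe share a labelled RNA and measure only the reading error within an array. For Cyp2e1 their coefficient of variation was 3.06% to 13.3%, and it was larger on the dim control arrays than on the peptide arrays. One spot on control 3 and 1 on peptide 1 were outliers and were left out. Before scaling, the dimmest of the remaining peptide spots was at 89.6 on peptide 3, and the brightest control spot at 37.7 on control 2. These arrays lay on different slides, with 75th percentiles of 328 and 224, so the gap includes a difference in array brightness. The SD between spots of an array was 0.04 to 0.19 on the log2 scale, and the standard error of their mean at most 0.06. The pooled SD between the arrays of a group was 0.45, which holds labelling and hybridisation error beside the differences between rats. That SD was near the median of 0.403 over all tested probes, and 61% of these had a smaller one.

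After scaling, the log2 signal of Cyp2e1 was -3.33, -2.73 and -3.23 in control 1, 2 and 3 and -0.64, -0.85 and -1.69 in peptide 1, 2 and 3. The groups did not overlap, and the lowest treated rat lay 1.04 above the highest control. The means were -3.1 ± 0.32 and -1.06 ± 0.56 (SD, n = 3 each), a difference of 2.04 (SE 0.35) or 4.1-fold. Unscaled, the geometric means differed 5.16-fold. The median difference of all tested probes was -0.214, and relative to it Cyp2e1 was 2.25 higher.

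**Figure D2:**
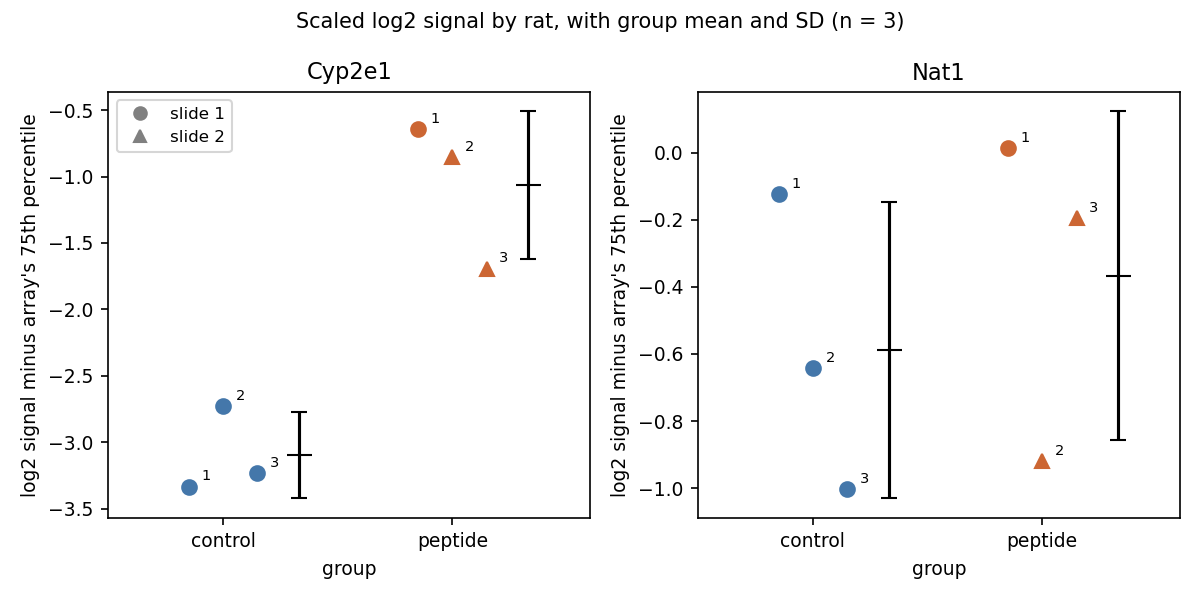
Log2 processed signal minus the array's 75th percentile for Cyp2e1 and Nat1, by group; points are rats (numbers as in the labels, circles slide 1, triangles slide 2), and bars give the mean and SD of 3 rats. The Cyp2e1 values of the peptide group all lie above those of the controls, on both slides, while those of Nat1 overlap.

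The treated rats of both slides showed the higher Cyp2e1 signal. Peptide 1, which shared its slide with the controls, lay 2.46 above the control mean, or 5.49-fold. Peptide 2 and 3, on the other slide, lay 2.25 and 1.41 above it, 1.83 on average. With the slide as a block the difference was 2.46 (SE 0.43), an estimate that compares a single treated rat, peptide 1, with the 3 controls beside it. Peptide 2 and 3 have no control on their slide, so for them slide and treatment cannot be told apart.

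Of the 37721 probes bright enough to be tested, 482 (1.28%) had all 3 peptide arrays above all controls, Cyp2e1 among them and Nat1 not. In a further 1580 (4.19%) all 3 peptide arrays lay below all controls. The median difference of all tested probes was -0.214 with this scaling, -0.011 with median scaling and 0.014 on slide 1 alone. How the upward and downward counts would balance under other scalings was not tested. A difference of at least 2-fold upward was found in 270 (0.716%). With limma, 0 probes (0%) passed a Benjamini-Hochberg adjusted p of 0.05, and 1067 (2.83%) had an unadjusted p under 0.05. The last count ran from 238 without peptide 3 to 9148 without peptide 1, each of the 37721 tested. Without peptide 1 every treated array lay on slide 2 and every control on slide 1. Slide and treatment therefore cannot be told apart in the count of 9148. Because Cyp2e1 was picked with this contrast in view, its place among these probes is not evidence about it.

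The authors' deposited table gave a like picture for Cyp2e1. Its normalised log2 values were 4.84, 5.06 and 4.48 in the controls and 7.33, 7.28 and 6.54 in the peptide group, a difference of 2.26 between the group means. The values come from the same scans and are no separate measurement. They nearly repeat those that quantile normalization gave here: 4.84, 5.065 and 4.44 in the controls and 7.35, 7.28 and 6.54 in the peptide group.

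The size of the Cyp2e1 difference depended on how background was handled. It was 2.24 to 2.37 with median scaling, quantile normalization or no scaling, and 1.36 on raw spot signals without background subtraction. Normexp, a model that estimates background from all spots and here adds 50 to every signal, gave 1.02 with quantile normalization. With the 75th percentile it gave 0.46, and the groups then overlapped, because control 1 rose to -0.4 while control 2 and 3 were at -1.61 and -1.84. On control 1 the model's background mean was -327, against -0.35 to 6.7 on the other arrays. That array held a spot with a local background of 38150, where no other array had one above 28. When spots with a flagged local background were left out, a choice made after seeing the data, the background mean of control 1 was 1.31. The Cyp2e1 difference was then 0.97 with the added 50 and 1.81 without it, and in both cases all 3 peptide arrays were above all controls.

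**Figure D3:**
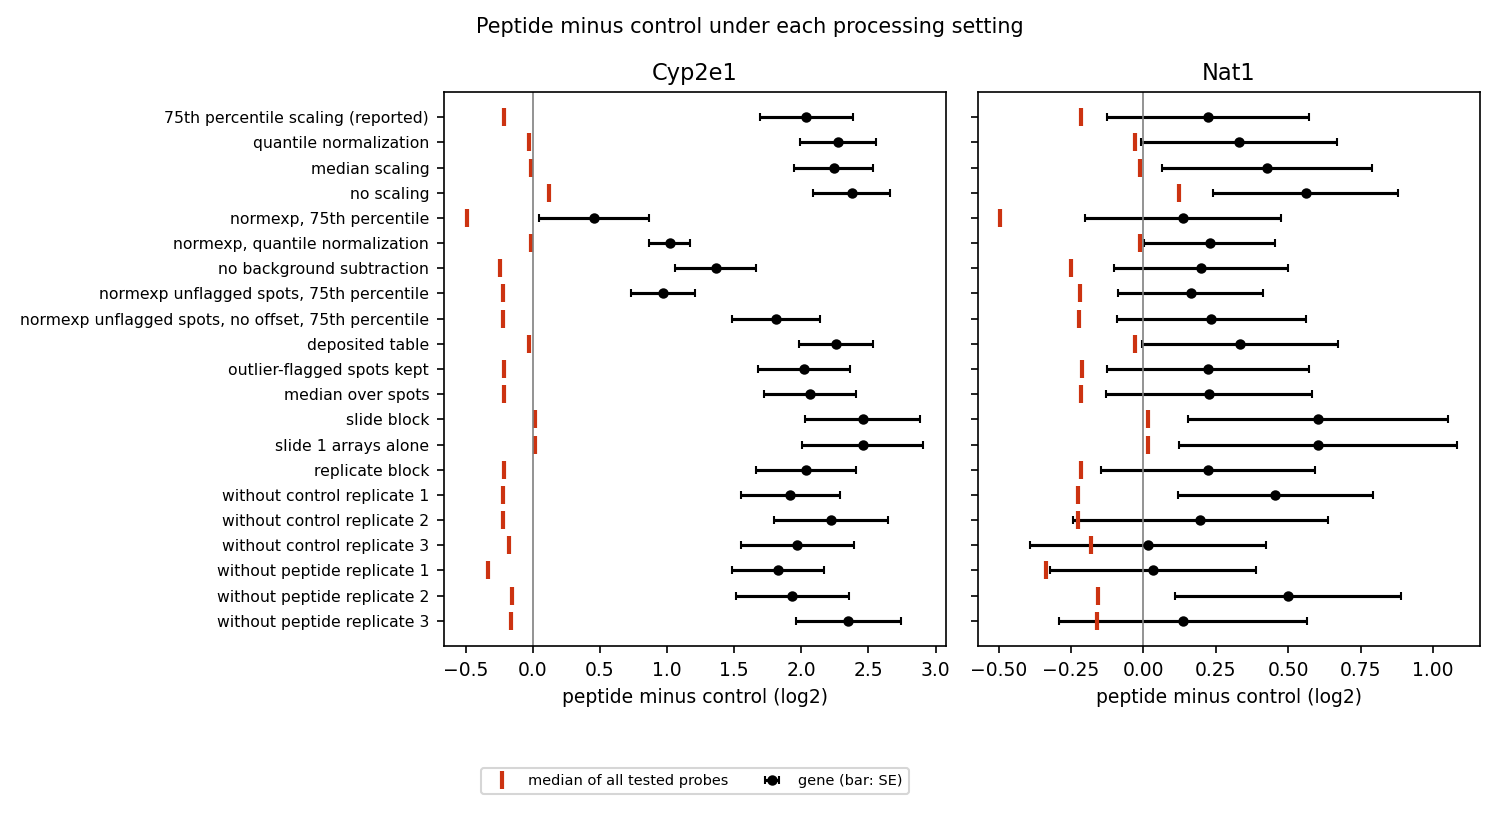
Peptide minus control (log2) for Cyp2e1 and Nat1 under each processing setting; points are the difference with its SE, red ticks the median difference of all tested probes, and the top row is the reported setting. Cyp2e1 stays above 0 throughout, from 0.46 to 2.46, and its low values are those of the background corrections; Nat1 runs from 0.02 to 0.60.

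The acetylating enzyme, Nat1, varied as much within the groups as between them. Its processed signal was 232, 144 and 116 in control 1, 2 and 3 (164 ± 60.2, SD, n = 3) and 243, 178 and 288 in peptide 1, 2 and 3 (236 ± 55.1, SD, n = 3). Control 1 was about as bright as peptide 1, and peptide 2 was dimmer than control 1, so the groups overlapped. No spot was an outlier. The spots varied by 4.53% to 12% within an array, and their SD was 0.07 to 0.18 on the log2 scale. The pooled SD between the arrays of a group was 0.47, and 63.4% of tested probes had a smaller one.

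After scaling, the log2 signal of Nat1 was -0.12, -0.64 and -1.002 in control 1, 2 and 3 and 0.01, -0.92 and -0.19 in peptide 1, 2 and 3. Only peptide 1 lay above all controls, and peptide 2 was nearly as low as control 3, the lowest rat. The means were -0.59 ± 0.44 and -0.37 ± 0.49 (SD, n = 3 each), a difference of 0.22 (SE 0.35), smaller than the spread within either group. Unscaled, the geometric means differed 1.48-fold, with 2 of 3 peptide arrays above all controls.

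Single rats set the size of the Nat1 difference. Peptide 1 and 3 lay 0.6 and 0.39 above the control mean and peptide 2 lay at -0.33 from it. The difference was 0.02 without control 3, 0.03 without peptide 1, 0.2 without control 2, 0.14 without peptide 3, 0.46 without control 1 and 0.5 without peptide 2. With the slide as a block it was 0.6 (SE 0.45), again from peptide 1 alone, while peptide 2 and 3 averaged 0.03 above the controls. In the authors' deposited table the values were 7.95, 7.36 and 6.86 in the controls and 8.06, 7.22 and 7.87 in the peptide group.

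The 2 enzymes differed in which treated rats were high. Peptide 2 had the highest processed signal of Cyp2e1 and the lowest of Nat1 in its group, and peptide 3 the reverse. On the scaled values peptide 1 was the highest of its group for both genes, and peptide 3 remained the lowest for Cyp2e1 and peptide 2 for Nat1. The Pearson correlation of their scaled log2 signals was 0.21 (Spearman 0.26) over the 6 arrays, which share slides and scaling, and 0.4 after quantile normalization. Nat1 was the fourth most like Cyp2e1 of 29 other named genes, and Cyp2e1 the sixteenth most like Nat1. Of all tested probes, 18% were at least as correlated with Cyp2e1 as Nat1 was, and 24.5% at least as correlated with Nat1 as Cyp2e1 was.

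The named gene most like Cyp2e1 was Mex3c, an RNA-binding ubiquitin ligase, with a Pearson correlation of 0.76 (Spearman 0.66) over the 6 arrays. Its scaled log2 signal ran only from -2.85 to -2.36, and 0.685% of all tested probes had at least that correlation with Cyp2e1. Cyp2e1 was selected on its group difference, which was large against its spread within groups. A high correlation with it over these arrays therefore largely restates that difference. Next came Ldha, a lactate dehydrogenase subunit (0.36, Spearman 0.43), and the ubiquitin ligase Trim2 (0.23, Spearman 0.09). Of all tested probes, 10.3% had at least the correlation of Ldha with Cyp2e1 and 17.1% that of Trim2.

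The named gene most like Nat1 was Trim2. The correlation of Nat1 was 0.93 with Trim2 (Spearman 0.94), 0.83 with the translation initiation factor Eif4b and 0.75 with Ldha, each over the 6 arrays. Trim2 was at 0.09, -0.47 and -0.61 in control 1, 2 and 3 and at 0.67, -0.88 and -0.08 in peptide 1, 2 and 3. Like Nat1 it was highest in peptide 1 and low in peptide 2 and control 3. After quantile normalization these correlations were 0.9, 0.63 and 0.6. Of all tested probes, 0.239% had at least the correlation of Trim2 with Nat1, 1.17% that of Eif4b and 2.39% that of Ldha.

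**Figure D4:**
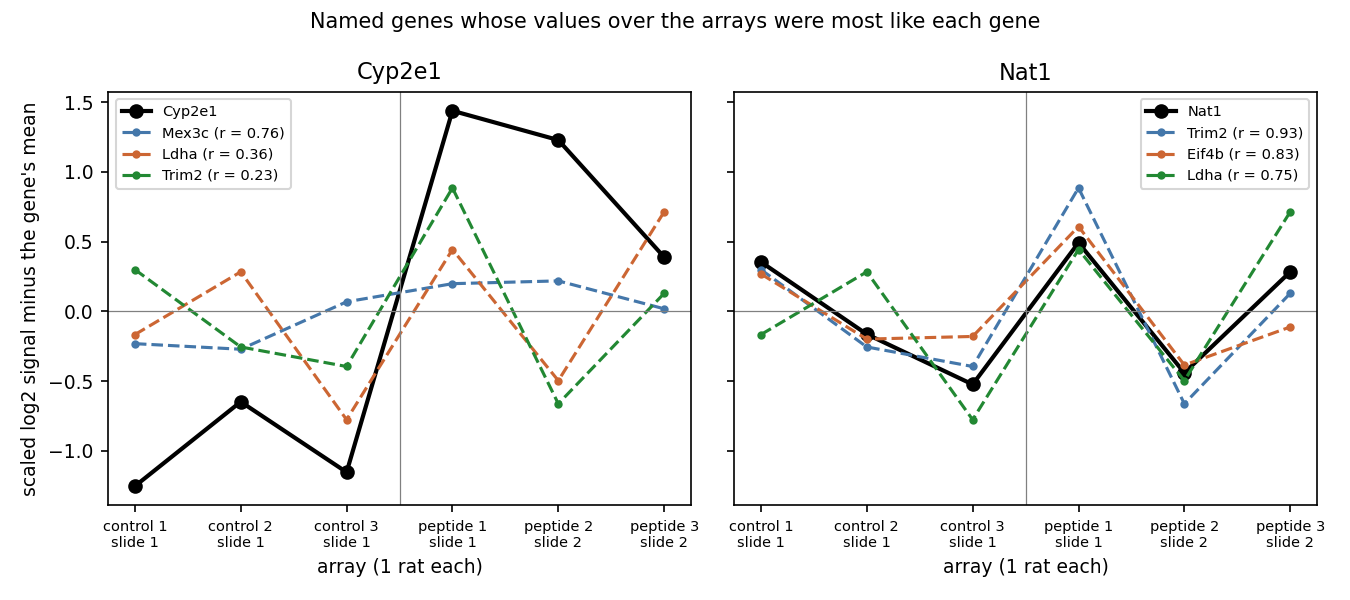
Scaled log2 signal of Cyp2e1 (left) and Nat1 (right) on each array after subtracting the gene's mean over the 6 arrays, with the 3 named genes of highest Pearson correlation; lines join the values of a gene only to help the eye. The step of Cyp2e1 between controls and peptide arrays is far larger than that of Mex3c, and Trim2 follows Nat1 from rat to rat.

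Other genes of the pathway could not be placed beside these values. Of 70 genes listed for xenobiotic metabolism, which included other cytochromes P450, their reductase, glutathione, sulfate and glucuronic acid transferases and the receptors that regulate them, 2 had a named probe, and these were Cyp2e1 and Nat1. Nat2, a close relative that lies next to Nat1 in the RefSeq gene order, was among those without one. The sequences of the 2 probes were not analysed here, so binding of RNA from relatives such as Nat2 was not tested.

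The cell types behind the signals were likewise not measured. None of 39 markers of smooth muscle, endothelium, fibroblasts, perivascular fat, liver cells, macrophages, red blood cells or nerve had a named probe (0 of 39), so the labelled tissue was not checked against its markers. In a whole aorta, a change in the number of cells that express a gene and a change in RNA per cell cannot be told apart.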

How the data were processed

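The authors deposited 1 Agilent scanner file per rat that holds the intensity of every spot; the submitters' processing notes name Agilent Feature Extraction 11.0.1.1. Per the labels, ribosomal RNA was removed and the rest copied from random primers into Cy3-labelled cRNA. The processed intensity is background-subtracted but not scaled between arrays. The authors also deposited a table of log2 values with equal column medians (6.3419). Its columns correlated with their own arrays at 0.9984 or more across probes, and for its normalization the method is not given in the sources used.

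Outlier and control spots were left out, log2 spot signals of a probe were averaged, and each array's 75th percentile was subtracted. Probes marked well above background on 3 or more arrays, 37721 in all, were fitted with limma 3.58.1 (R 4.3.3), and p-values were adjusted over all of them. Group means, differences and SEs come from that fit. The SEs are moderated, because limma draws each probe's variance toward that of all tested probes. The SDs of the groups are not moderated. Other genes are named by their Pearson correlation with each member (the 3 highest among 29). Alternatives were other scalings, normexp background correction (offset 50), raw spot signals, the deposited table, other treatment of spots and dim probes, the slide or replicate number as a block, and leaving out each array. The fit was checked on simulated arrays without a slide difference, so that check does not cover the uneven spread of the groups over slides. Figures used matplotlib 3.10.9. The members, lists and alternatives were chosen with earlier results of these data known. Probes were named by RefSeq accession (assembly GRCr8), and no probe coordinates were used because the array header names another build. The order of Nat1 and Nat2 comes from the RefSeq gene positions.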

Additional observations from a re-analysis of the deposited data

How the results depend on the processing

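Over 20 alternatives each, the Cyp2e1 difference was above 0 in 20 (0.46 to 2.46) and the Nat1 difference in 20 (0.02 to 0.6). These alternatives are not separate checks, since they reuse the same 6 arrays. For Cyp2e1, 4 moved the value by more than the SD between rats: with normexp it was 0.46 after 75th percentile scaling and 1.02 after quantile normalization, raw spot signals gave 1.36, and normexp without background-flagged spots, added after seeing the data, gave 0.97. The offset of 50 and the unsubtracted background compress dim signals by construction, and the outlying background estimate on control 1 enters both normexp values fitted on all spots. Leaving out 1 array gave 1.83 to 2.35 for Cyp2e1 and 0.02 to 0.5 for Nat1, and 0 to 4 probes past the adjusted limma threshold, with the 4 found without control 2. The other alternatives gave 0 probes. With the replicate number as a block the differences were 2.04 and 0.22 and 0 probes passed. The deviations of same-numbered arrays from their group means correlated at -0.013, -0.19 and -0.236 across probes. Arrays of different number were not compared, and peptide 2 and 3 lay on another slide. These values therefore cannot decide whether the numbers mark pairs.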
